A study of Mus musculus with 8 samples.

Results

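The cytosolic and mitochondrial chaperone genes described here comprise 68 of the 18820 genes tested on 8 whole-transcript arrays of mouse pancreas. They were chosen by symbol: Hsp70 and Hsp110 genes (Hspa, Hsph1), cytosolic Hsp90 (Hsp90a), small heat shock proteins (Hspb), the mitochondrial chaperonin genes Hspd1 and Hspe1, J proteins of classes A, B and C (Dnaja, Dnajb, Dnajc) and subunits of the CCT chaperonin (Cct), leaving out chaperones of the endoplasmic reticulum (ER). Of the arrays, 4 were wild type and 4 Sel1L knockout, all with pancreas RNA on the C57BL/6J background. In both groups exon 6 of Sel1l was flanked by loxP sites, and mice of 8 to 20 weeks were given 5 μl per g body weight of a 5 mg/ml tamoxifen solution on 3 days in a row. Mice of the knockout group also carried a Cre recombinase fused to the estrogen receptor under an actin promoter, a promoter not limited to pancreas, while their wild type littermates had no Cre. Deletion in pancreas, deletion elsewhere in the body and Cre activity itself cannot be told apart in this design. The labels do not say whether the numbered samples were separate animals; p-values therefore reflect the spread among these arrays alone, and that spread could be technical.

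Chaperones keep unfolded proteins from clumping and help them reach their final shape. An Hsp70 binds a stretch of unfolded chain and lets go of it in a cycle driven by ATP. A J protein brings the chain and starts the cycle, and a nucleotide exchange factor ends it. The cytosol and the mitochondrial matrix each have a set of their own: Hspa8 with many J proteins, Hsp90 and the CCT ring in the cytosol, and Hspa9 with Dnaja3, Grpel1 and the chaperonin of Hspd1 and Hspe1 in the matrix. In the cytosol, genes of this kind are the classic targets of heat shock factor 1, which binds inverted GAA repeats (heat shock elements). Acinar cells of the pancreas make large amounts of secreted protein that folds in the ER, where the separate ER chaperones and Sel1L, a part of ER-associated degradation, work.

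Values are log2 levels of the array features, and a difference is knockout minus wild type. A gene was called changed at an adjusted p under 0.05 in limma with Benjamini-Hochberg adjustment over all genes tested. The targeted gene Sel1l read 12.37 to 12.39 in wild type and 11.45 to 11.70 in knockout arrays (difference -0.76, SE 0.0788, limma adjusted p = 0.000196). Markers of acinar cells had a mean log2 level of 13.76 to 13.84 in wild type and 13.47 to 13.56 in knockout arrays, and 3 of 5 measured were called lower. Endothelial markers were called higher for 3 of 5, those of stellate cells and of macrophages for 0 of 7 each in either direction. Duct markers had a summed log2 level of 11.55 to 11.85 in wild type and 9.99 to 10.59 in knockout arrays, with 1 of 5, Muc1, called lower. Muc1 (-2.39) was the brightest of them, at a mean of 11.29 in wild type, and so weighed most in this sum. The other 4 were not called, with Krt7 (0.37), Krt19 (0.30) and Cftr (0.25) above 0 and Sox9 (-0.32) below. In bulk tissue, fewer cells of a type and less RNA per cell cannot be told apart. Wild type replicate 2 stood apart in cell markers, with a mean macrophage marker level of 6.56 against 8.41 to 9.11 on the other wild type arrays.

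Of the 68 chaperone genes, 15 rose and 6 fell in the knockout arrays, and 47 were not called. That is 30.9% called, beside 28.7% of all genes tested, so the members as a whole were called about as often as any gene. In the single directions 16.1% of all genes were called higher and 12.6% lower. Groups without overlap were seen for 15 members with knockout above and 7 with knockout below, beside 17.6% and 14.6% of all genes (32.2% in either direction). Over all features, the median level was 4.94 to 4.99 on the wild type arrays and 5.00 to 5.05 on the knockout arrays. The median difference over the members was 0.07, against -0.04 over all genes, of which 7322 lay below the median of every array. Among genes above the median level, the medians were 0.15 for 50 members and 0.13 for all 9410 genes. There 44.4% of all genes were called, 32.0% higher and 12.4% lower, beside 18 members higher and 5 lower. The medians and shares called of families below are to be read beside both sets of values. The balance of directions moved with the scaling of the arrays: quantile normalization gave 10 higher and 10 lower members, cyclic loess 10 and 10, and centring each array on its median 12 and 9, while higher genes made up 56.0%, 42.9%, 48.1% and 36.3% of all calls on the deposited values and under these 3 scalings. A total of 9 higher members (Hspa9, Dnaja3, Hspd1, Hspe1, Cct3, Cct7, Dnajc7, Dnajc9 and Dnajc22) and 4 lower ones (Hspb6, Hsph1, Dnajc12 and Dnajc30) kept their call under all 17 alternatives run. In 13 members the level lay below the array median on every array.

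**Figure D1:**
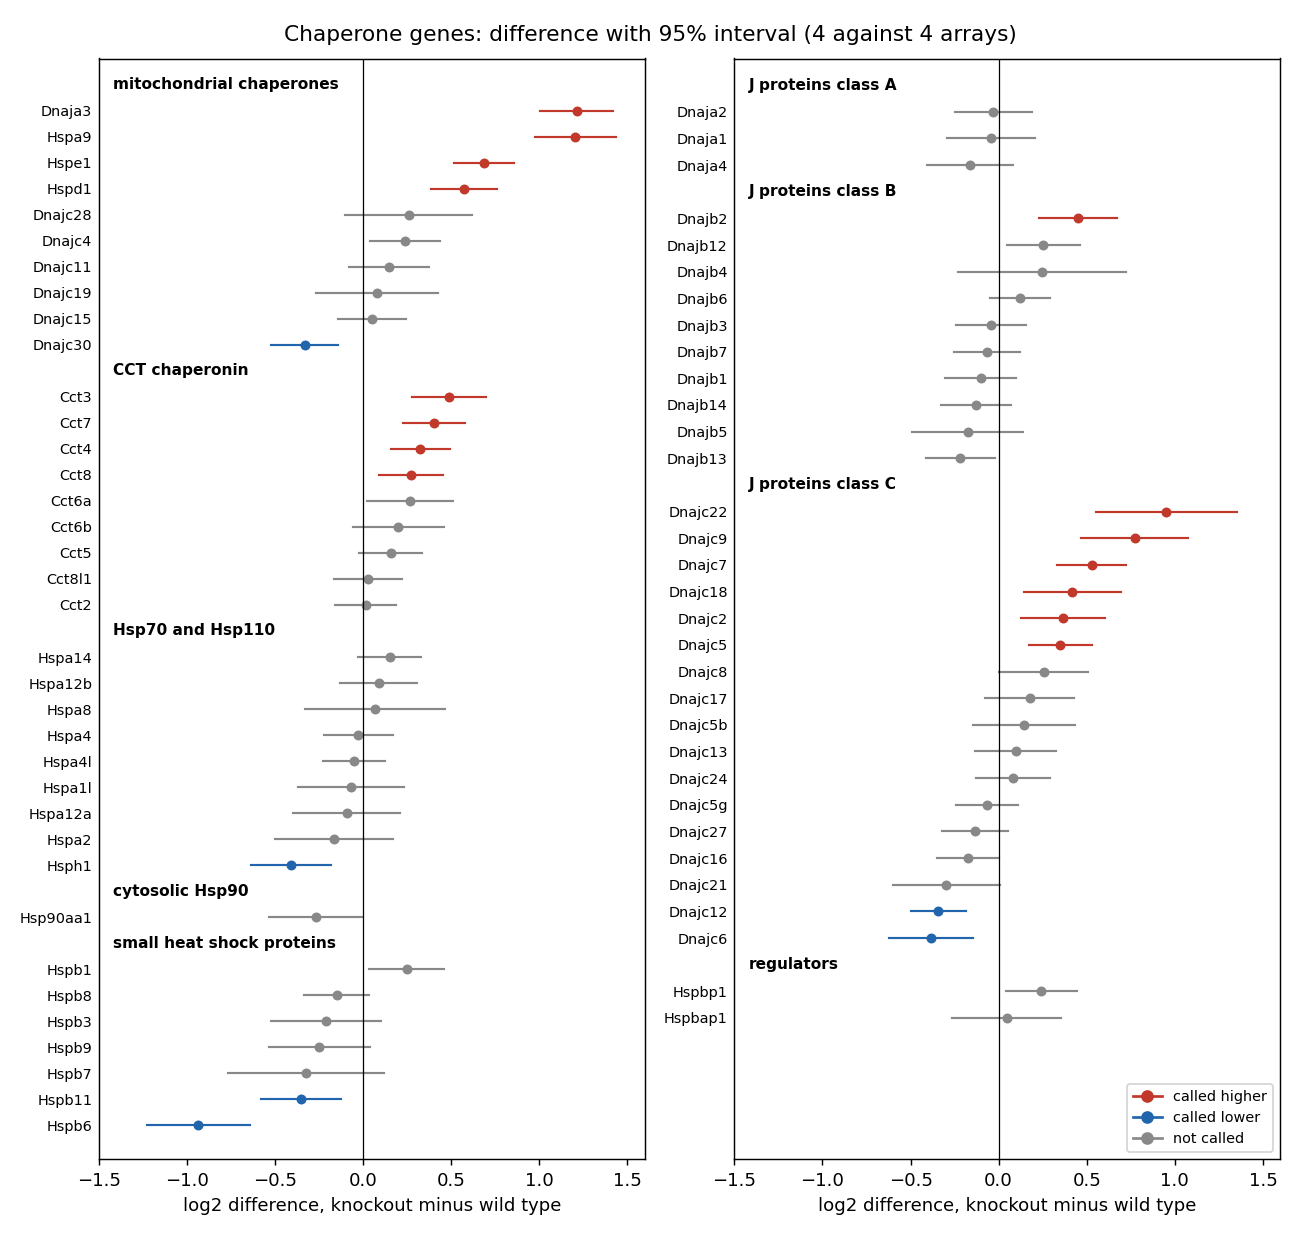
Log2 difference, knockout minus wild type, of each of the 68 chaperone genes by family, with its 95% interval from limma (4 against 4 arrays); red points were called higher, blue lower, grey not called. The matrix genes Dnaja3 and Hspa9 lie farthest to the right at 1.21 each, and Hspb6 farthest to the left at -0.94.

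Sequences are shown first for the gene pair Hspd1 and Hspe1, because both rose and share 1 promoter, and for Dnaja3, which rose more. They are from RefSeq (GRCm38.p6), whose promoter table held 56 of the 68 members in windows of 250 bases before to 50 after a transcript start. Hspa9, Hspa8 and Hsp90aa1 were among the members without a window. Hspd1 and Hspe1 lie head to head: Hspe1 starts on the plus strand at position 55088148 of chromosome 1, and one of the Hspd1 starts listed lies on the minus strand at 55087932. The stretch between them and the 200 bases before Dnaja3 are given on the plus strand, with matches to a heat shock element in capitals. The element was searched as GAA, TTC and GAA each parted by any 2 bases, in this order or its reverse complement.
Hspd1-Hspe1, chr1:55087933-55088147: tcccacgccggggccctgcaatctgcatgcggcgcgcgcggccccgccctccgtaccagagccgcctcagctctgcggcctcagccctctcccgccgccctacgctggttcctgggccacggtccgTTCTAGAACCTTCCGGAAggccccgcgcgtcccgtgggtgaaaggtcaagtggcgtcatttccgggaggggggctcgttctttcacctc
Dnaja3, chr16:4683870-4684069: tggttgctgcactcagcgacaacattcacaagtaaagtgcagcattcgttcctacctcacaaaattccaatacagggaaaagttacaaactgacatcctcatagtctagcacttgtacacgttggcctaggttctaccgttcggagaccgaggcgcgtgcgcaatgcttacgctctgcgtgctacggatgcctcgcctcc
The shared Hspd1-Hspe1 promoter holds a run of 4 alternating units over 18 bases, so that 2 matches of the 3-unit element overlap in it. No match lies in the Dnaja3 stretch.

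Besides Hspd1 and Hspe1, 2 members held the 3-unit element in a window, which makes 4 of 56 members (7.14%) against 179 of 27025 genes in the table (0.662%). Hspd1 and Hspe1 count as 2 of these 4 through matches in the same shared run. The sites of Dnajb6 and Hsph1 are printed because neither gene was called higher on the feature kept for it. Of the 5 features of Dnajb6, 1 of those not kept was called higher when features were tested one by one (0.47, limma adjusted p = 0.0161).
Dnajb6, chr5:29735852-29735864, plus strand: GAATCTTCCGGAA
Hsph1, chr5:149636288-149636300, minus strand: TTCTGGAAAGTTC
The site of Dnajb6 lies before both of its starts listed, and that of Hsph1 begins 16 or 37 bases into the transcript, depending on the start. The shorter 2-unit form GAANNTTC, which reads alike on both strands and is part of the 3-unit element, was in a window of 14 of 56 members (25.0%) and of 9.04% of all genes. It was held by Hspd1, Hspe1, Hsph1 and Hspb6 among the called genes with a window. The called members Cct4, Dnajc2, Dnajc5, Dnajc12, Dnajc18, Dnajc22, Dnajc30 and Hspa9 had no window and were not searched. The 9-base element TGATGCAAT, bound by ATF4 with a C/EBP partner, and the XBP1 site TGACGTGG, searched on both strands, were held by 0.222% and 0.714% of all genes and by 0 of 56 members. A match is a description of these letters only.

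In the mitochondrial matrix, the core of the Hsp70 machine rose together. Of 10 mitochondrial chaperone genes 4 rose and 1 fell, with a median difference of 0.25 and 9 differences above 0. That is 50% called, beside 28.7% of all genes. Among genes above the median level, 5 of the 10 were called higher and 1 lower, beside 44.4% of all genes there. After quantile normalization, centring and cyclic loess 4 were called higher and 1 lower. The median was then 0.10, 0.17 and 0.13, with 6, 8 and 7 of the 10 differences above 0. Hspa9, the matrix Hsp70 known as mortalin, read 9.39, 9.77, 9.64 and 9.83 on the wild type arrays and 10.79, 10.84, 10.90 and 10.92 on the knockout arrays. All knockout values lay above all wild type values, by more than the spread within either group. Hspa9 thus rose 2.31-fold, by 1.21 (SE 0.102, limma adjusted p = 7.53e-05). Dnaja3, its J protein, read 7.54, 7.82, 7.67 and 7.88 in wild type and 8.89, 8.87, 9.01 and 8.99 in knockout. Its difference was also 1.21 (SE 0.0931, limma adjusted p = 4.23e-05), again with the groups far apart. On both genes wild type replicate 1 was the lowest array.

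Hspd1 and Hspe1 encode the chaperonin ring and its lid (Hsp60 and Hsp10), in which proteins newly brought into the matrix fold. Hspd1 read 9.04, 8.88, 9.16 and 9.02 in wild type and 9.61, 9.66, 9.60 and 9.51 in knockout. Hspe1 read 9.05, 9.01, 9.09 and 9.07 in wild type and 9.63, 9.75, 9.74 and 9.86 in knockout. Neither gene had overlapping groups. Both rose by less than Hspa9 and Dnaja3, with differences of 0.57 (SE 0.0826, limma adjusted p = 0.00113) and 0.69 (SE 0.0761, limma adjusted p = 0.000274); whether the sizes differ between genes was not tested. Each of these genes has 2 features on the array, all 4 of which were called higher when features were tested one by one, with differences of 0.56 and 0.57 for Hspd1 and 0.69 and 0.72 for Hspe1.

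The member that fell was Dnajc30, a J protein of the inner mitochondrial membrane, at 7.59, 7.53, 7.45 and 7.28 in wild type and 7.10, 7.13, 7.20 and 7.11 in knockout. Its fall was small, with a difference of -0.33 (SE 0.0856, limma adjusted p = 0.0185), although no knockout array reached the lowest wild type value. The remaining 5 were not called. Dnajc19, a J protein of the import motor that drives Hspa9 at the inner membrane, differed by 0.08 with a 95% interval of -0.27 to 0.43. Dnajc15, the other member of that pair, differed by 0.05 (interval -0.14 to 0.25), so a change as large as that of Dnaja3 lay outside both intervals. Dnajc4 (0.24), Dnajc11 (0.15) and Dnajc28 (0.26) also missed the threshold.

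The partners of these chaperones, from a list outside the symbol rule, showed 7 of 17 mitochondrial proteases and chaperone partners higher and 1 lower. That is 47.1% called, beside 28.7% of all genes and 44.4% of those above the median level. None of the 17 lay below the median of every array. Lonp1, the ATP-dependent protease of the matrix, read 7.33, 7.39, 7.30 and 7.31 in wild type and 9.32, 9.33, 9.45 and 9.36 in knockout. This 4.09-fold rise (difference 2.03, SE 0.0705, limma adjusted p = 6.99e-07) was number 3 by p-value among all genes tested. Grpel1, the nucleotide exchange factor of Hspa9, rose by 1.19 (SE 0.0715, limma adjusted p = 1.02e-05), close in size to Hspa9 and Dnaja3. Clpb, which takes aggregates apart, rose by 0.78 (SE 0.0947), and Clpp, the other large matrix protease, by 0.63 (SE 0.0822). Trap1, the mitochondrial Hsp90, differed by 0.26 and missed the threshold (limma adjusted p = 0.0558), although its groups did not overlap; with trend and robust variance it was called (adjusted p = 0.0343). Pmpcb, a subunit of the peptidase that removes import signals, was the 1 lower gene (-0.25), named after its value was seen, and lower calls in the list numbered 0 without wild type replicate 1 or 2, without Sel1L knockout replicate 1 or 3, or with the replicate number as a block, and 2, 2 and 3 after quantile normalization, centring and cyclic loess.

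Of 21 mitochondrial import genes measured, 7 rose and 1 fell, with a median difference of 0.24 (38.1% called, beside 28.7% of all genes). None of the 21 lay below the median of every array, and among genes above the median level 44.4% were called. Timm21, a subunit of the inner membrane translocase, rose by 1.08 (SE 0.105), Timm8a1, a small chaperone between the membranes, by 0.61 (SE 0.105), and Tomm7 by 0.47 (SE 0.100). Tomm6, a small subunit of the outer membrane channel like Tomm7, fell by 0.51 (SE 0.0863). The count of rises dropped to 4 without Sel1L knockout replicate 2 or 4, to 3 after quantile normalization, 4 after centring and 2 after cyclic loess, where Tomm7 was not called (adjusted p = 0.0508).

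**Figure D2:**
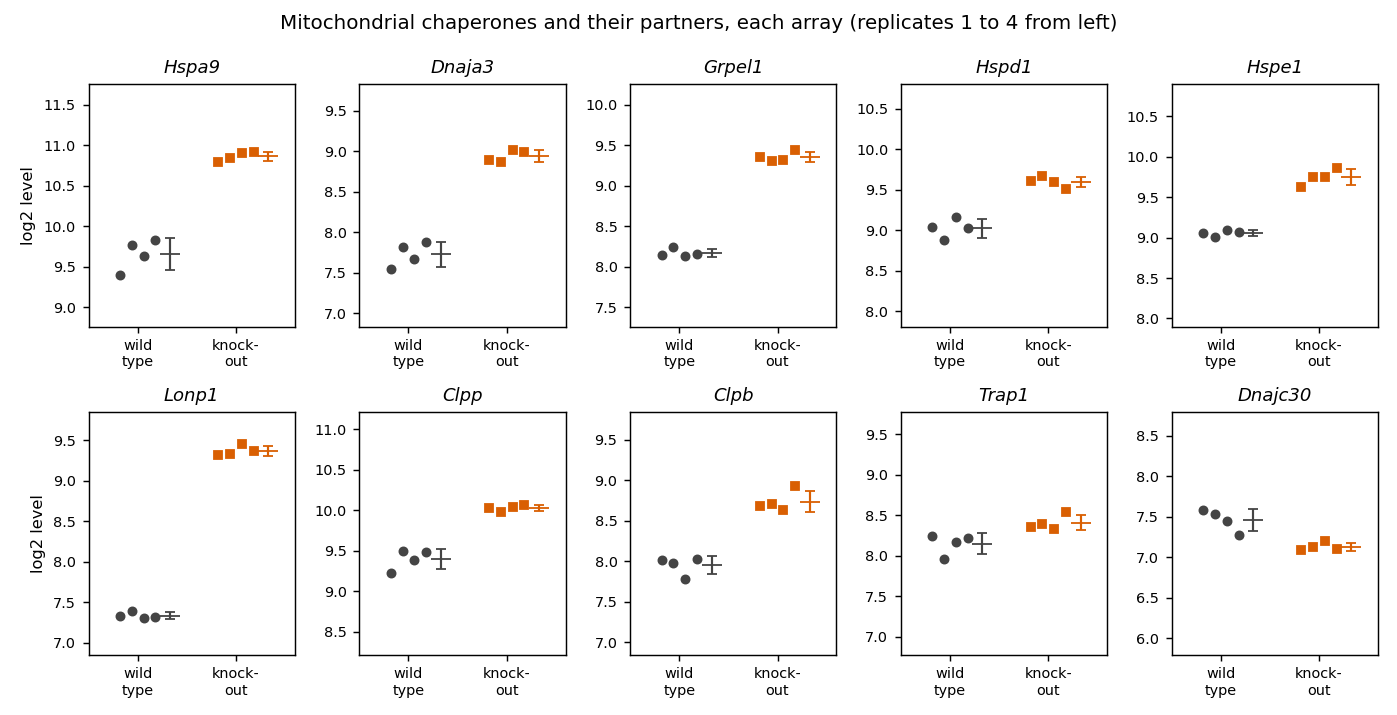
Log2 level on each of the 8 arrays for 5 mitochondrial chaperone genes and 5 partners; points are arrays (dots wild type, squares knockout), bars are the group mean ± SD (n = 4), and every panel spans 3 log2 units. The knockout arrays lie above all wild type arrays in each panel except Dnajc30, where they lie below.

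The CCT ring folds actin and tubulin in the cytosol. Of 9 Cct genes 4 rose by small amounts (Cct3, Cct4, Cct7 and Cct8), 5 were not called and none fell. The share called was 44.4%, beside 28.7% of all genes. Among genes above the median level, 4 of 7 Cct genes were called, beside 44.4% of all genes there. The median difference was 0.27, and all 9 differences were above 0. The median stayed above 0 after quantile normalization, centring and cyclic loess (0.17, 0.19 and 0.18), where 8, 7 and 8 of the 9 differences were above 0 and 2, 3 and 2 genes were called. Cct3 read 7.85, 7.65, 7.97 and 7.69 in wild type and 8.17, 8.40, 8.24 and 8.30 in knockout. Its groups did not overlap, and the difference of 0.49 (SE 0.0946, limma adjusted p = 0.00502) is a 1.40-fold rise. Cct7 rose by 0.40 (SE 0.0790, limma adjusted p = 0.00541) and Cct4 by 0.33 (SE 0.0746, limma adjusted p = 0.0107). Cct4 lost its call after quantile normalization (0.22, adjusted p = 0.0611) and cyclic loess (0.20, adjusted p = 0.0831).

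Cct8 rose by 0.27 (SE 0.0822, limma adjusted p = 0.0340), the weakest of these calls. It was lost without wild type replicate 1 (limma adjusted p = 0.0711), 2 (0.0614) or 4 (0.0617), without Sel1L knockout replicate 2 (0.0818), 3 (0.0705) or 4 (0.0891), after each of the 3 rescalings (0.315, 0.119 and 0.265 for quantile, centring and cyclic loess), and with the replicate number as a block (0.0602). Cct2 read 10.24, 10.08, 10.24 and 10.11 against 10.18, 10.24, 10.10 and 10.21, so its groups lay on top of each other (0.01, 95% interval -0.16 to 0.19). Cct5 (0.16) and Cct6a (0.27, limma adjusted p = 0.0918) were not called either, nor were Cct6b (0.20) and Cct8l1 (0.03), both below the median of every array. Differences within the ring thus ranged from 0.01 to 0.49. Tcp1, which encodes the remaining ring subunit and is named outside the rule's symbols, differed by 0.28 (limma adjusted p = 0.0729).

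Among 9 CCT partners and prefoldin subunits measured, Tcp1 included, 3 rose and none fell. That is 33.3% called, beside 28.7% of all genes and 44.4% of those above the median level. Txndc9, which binds CCT and slows its cycle, rose by 0.54 (SE 0.106, limma adjusted p = 0.00558). Pdcl, its relative that works with CCT on G protein subunits, rose by 0.34 and the prefoldin gene Pfdn6 by 0.32. Both lost the call after each rescaling, which left 1 rise in the list, as did leaving out Sel1L knockout replicate 2 or 4. Pdcl also lost it without Sel1L knockout replicate 1 (adjusted p = 0.0546), 2 (0.0561), 3 (0.0775) or 4 (0.051). Pfdn6 lost it without wild type replicate 1 (0.0802), 3 (0.054) or 4 (0.0716), without Sel1L knockout replicate 2 (0.0813) or 4 (0.0906), and with the replicate number as a block (0.0552).

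**Figure D3:**
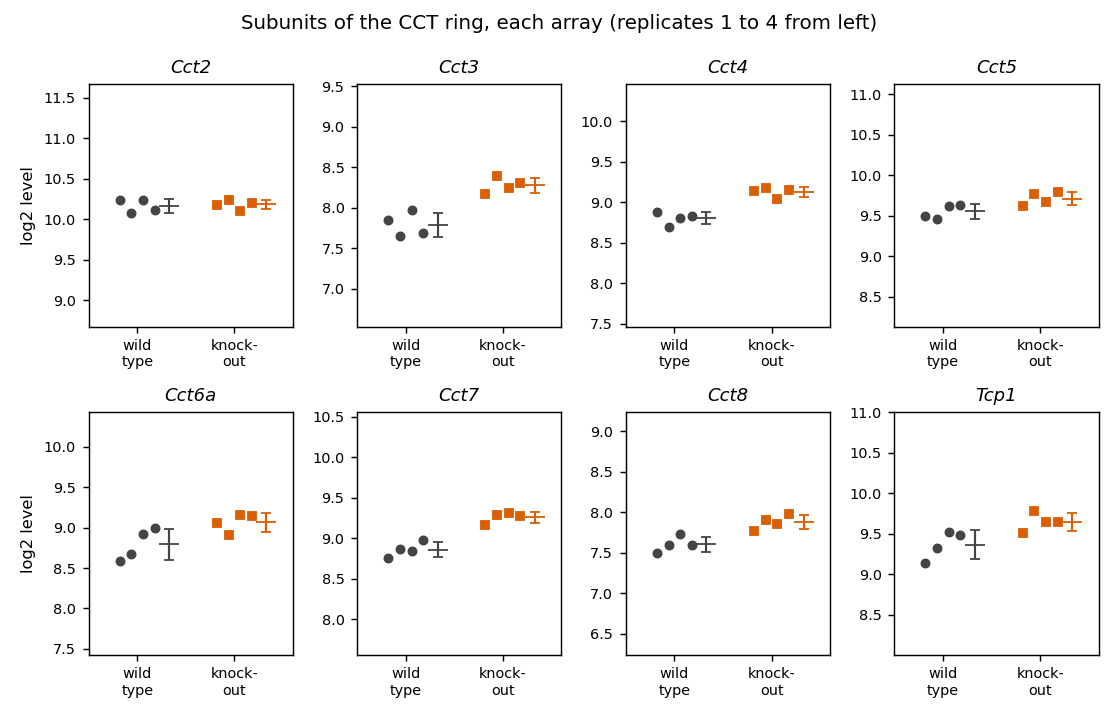
Log2 level on each array for 7 Cct genes and Tcp1, drawn as points (dots wild type, squares knockout) with the group mean ± SD (n = 4); every panel spans 3 log2 units. The groups are apart for Cct3, Cct4, Cct7 and Cct8, by 0.27 to 0.49 between means, and overlap for the others.

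No cytosolic Hsp70 gene was called higher. Of 9 Hsp70 and Hsp110 genes 1 fell and 8 were not called, with a median difference of -0.05 (11.1% called, beside 28.7% of all genes). Hspa8, the constitutive Hsp70 of the cytosol, read 12.29, 11.46, 12.26 and 12.26 in wild type and 12.07, 12.27, 12.15 and 12.04 in knockout. Wild type replicate 2 lay far below the others, which sat at the top of the knockout range. The difference was 0.07 (95% interval -0.33 to 0.47), and without wild type replicate 2 it was -0.13 (limma adjusted p = 0.273). The other 2 Hspa8 features showed that array at 11.84 and 11.64, also its group's lowest but by less, and the 3 features gave differences from -0.11 to 0.07, none called. Hspa4, an exchange factor of the Hsp110 kind, differed by -0.03 (interval -0.22 to 0.17).

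Hsph1 encodes Hsp110 (Hsp105), an exchange factor for Hspa8 and one of the genes that heat induces. It read 7.41, 7.49, 7.78 and 7.60 in wild type and 7.02, 7.10, 7.28 and 7.25 in knockout. All knockout values were lower, and the difference was -0.41 (SE 0.101, limma adjusted p = 0.0154). The other members of the family, Hspa14 (0.15), Hspa12b (0.09), Hspa4l (-0.05), Hspa1l (-0.07), Hspa12a (-0.09) and Hspa2 (-0.16), were not called. Hspa1a and Hspa1b, the strictly inducible pair, share their features with each other and were not analysed here, as were Hspb2, Dnajb8 and Dnajc14, whose features also carry a second symbol.

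Hsp90aa1, the inducible cytosolic Hsp90, read 9.85, 9.31, 9.69 and 9.53 in wild type and 9.41, 9.38, 9.30 and 9.22 in knockout. The knockout arrays were the lower ones apart from wild type replicate 2, which lay among them. The difference of -0.27 (95% interval -0.53 to -0.01) was not called (limma adjusted p = 0.109). Without wild type replicate 2 it was called lower (-0.36, adjusted p = 0.0302), as it was after centring (-0.35, adjusted p = 0.0365) and cyclic loess (-0.38, adjusted p = 0.0486). Its 3 features differed by -0.29 to -0.24. Hsp90ab1 was not analysed here.

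Of 10 heat-inducible genes among the members, taken over all families, 2 rose (Hspd1 and Hspe1) and 1 fell (Hsph1), with a median of 0.01. That is 30.0% called, near the 28.7% of all genes. Lower calls numbered 2, 2 and 3 after quantile normalization, centring and cyclic loess, with a median of -0.06 each time, and 2 without wild type replicate 2, with a median of -0.13. Dnajb1, the inducible partner of cytosolic Hsp70, read 6.57, 6.54, 6.71 and 6.75 against 6.65, 6.60, 6.38 and 6.53, with overlapping groups and a difference of -0.10 (interval -0.30 to 0.10). The other inducible J proteins Dnaja1 (-0.04) and Dnajb4 (0.25, interval -0.23 to 0.72) were not called. Hsf2, a heat shock factor, and Hsbp1, which binds such factors, differed by -0.06 and -0.12. The factors Hsf4 (-0.24) and Hsf5 (-0.19, below the median of every array) were also below 0. None of 4 factors and binding proteins measured was called (1 of them lower after quantile normalization or cyclic loess). Hsf1 was not analysed here.

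Small heat shock proteins hold unfolded proteins without using ATP. Of 7 measured, 2 fell (Hspb6 and Hspb11) and none rose, and the median difference was -0.25. The 28.6% called is near the 28.7% of all genes. Hspb6 (Hsp20), known from muscle, read 8.22, 8.65, 8.29 and 8.71 in wild type and 7.44, 7.47, 7.46 and 7.75 in knockout. The groups were apart, and Hspb6 fell 1.91-fold (-0.94, SE 0.131, limma adjusted p = 0.000977). Smooth muscle markers were called for 1 of 6, Cnn1, which was higher but lay below the median of every array. Of the 6 differences 4 were below 0, among them those of Acta2 (-0.51) and Tagln (-0.21), neither called. The log2 of the summed level of these markers was 8.00 to 8.81 in wild type and 7.98 to 8.34 in knockout arrays. Skeletal muscle markers were called lower for 2 of 5, with a summed level of 6.85 to 7.26 against 6.67 to 6.86. The part of muscle cells in the fall of Hspb6 was not tested.

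Hspb1 (Hsp27), which is abundant and heat-inducible, read 9.25, 9.38, 9.31 and 9.26 in wild type and 9.51, 9.55, 9.37 and 9.77 in knockout. Sel1L knockout replicate 3 fell among the wild type arrays, and the difference of 0.25 was not called (limma adjusted p = 0.0764); it was with trend and robust variance (adjusted p = 0.0418) and among genes above the median level (0.0491). Hspb8, which works with the co-chaperone Bag3, differed by -0.15 without a call, but by -0.29 with one after quantile normalization (adjusted p = 0.0378) or cyclic loess (adjusted p = 0.0379). Hspb11, which despite its symbol works in transport along cilia (Ift25), read 4.54, 4.73, 4.77 and 4.44 in wild type and 4.16, 4.24, 4.24 and 4.43 in knockout, below the median of every array. Its difference of -0.35 (limma adjusted p = 0.0275) lost the call without wild type replicate 2 (0.0602) or 3 (0.0603), without Sel1L knockout replicate 1 (0.0711), 2 (0.0666) or 3 (0.0702), after cyclic loess (0.0772) and with the replicate number as a block (0.0595). Hspb3 (-0.21), Hspb7 (-0.32) and Hspb9 (-0.25) were not called.

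**Figure D4:**
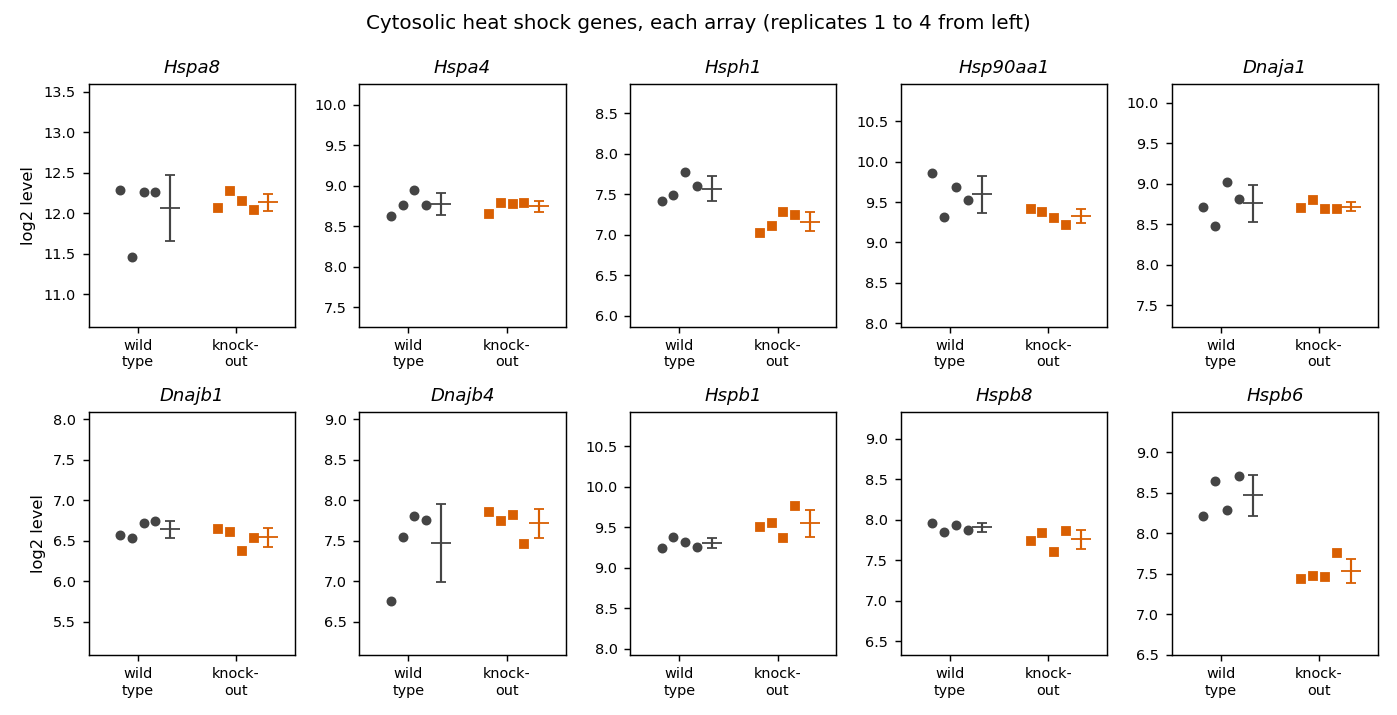
Log2 level on each array for 10 cytosolic heat shock genes, drawn as points (dots wild type, squares knockout; replicates 1 to 4 from left) with the group mean ± SD (n = 4); every panel spans 3 log2 units. The groups are apart for Hsph1 and Hspb6, both lower in knockout, and wild type replicate 2 of Hspa8 sits at 11.46, below the other arrays of that panel.

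J proteins outside mitochondria choose what an Hsp70 works on. Of 30 measured, 7 rose and 2 fell, with 6 of the rises and both falls in class C, whose members carry a J domain in otherwise unlike proteins. The 30.0% called is near the 28.7% of all genes. In class C the 6 higher and 2 lower became 4 and 4 after quantile normalization, 4 and 3 after centring, and 3 and 4 after cyclic loess, so the excess of rises depended on the scaling; without wild type replicate 4 it was 4 and 1, and without Sel1L knockout replicate 3 or 4 it was 4 and 2. None of the 3 class A genes was called (Dnaja1, Dnaja2 and Dnaja4, -0.16 to -0.03). In class B, Dnajb2 of 10 genes was called higher and none lower on the deposited values. After quantile normalization, centring and cyclic loess, and without wild type replicate 2, 1 class B gene was called lower, while higher calls numbered 0, 1, 1 and 1. They numbered 2 without wild type replicate 1, with array weights, with trend and robust variance, and among genes above the median level. Dnajb2 encodes a J protein with ubiquitin-binding motifs that passes Hsp70 clients to the proteasome, and it read 6.01, 6.20, 6.12 and 6.39 against 6.49, 6.71, 6.71 and 6.62. Its groups did not overlap, and it rose by 0.45 (SE 0.0981, limma adjusted p = 0.00858), a call lost after quantile normalization (0.29, adjusted p = 0.0621). Dnajb6, which holds back aggregation, differed by 0.12 (interval -0.05 to 0.29) in its kept feature, and 1 of its 5 features was called higher. The other 8 class B genes lay between -0.22 (Dnajb13) and 0.25 (Dnajb12, limma adjusted p = 0.0661), and both of these had groups without overlap.

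Dnajc22, a membrane J protein related to the fly gene wurst, read 5.35, 5.23, 5.42 and 5.89 in wild type and 6.70, 6.37, 6.62 and 6.02 in knockout. The gap between groups was narrow, since wild type replicate 4 and Sel1L knockout replicate 4 nearly met. The rise was 0.95 (SE 0.178, limma adjusted p = 0.00433), or 1.94-fold. Dnajc9, which brings Hsp70 to histones, read 5.94, 5.84, 5.48 and 5.86 in wild type and 6.26, 6.62, 6.55 and 6.78 in knockout, with no overlap, and rose by 0.77 (SE 0.135, limma adjusted p = 0.00303). Dnajc7, which binds both Hsp70 and Hsp90, read 7.51, 7.67, 7.60 and 7.34 in wild type and 8.01, 8.10, 8.07 and 8.06 in knockout. Its knockout values were tight and all above wild type, and it rose by 0.53 (SE 0.0870, limma adjusted p = 0.00222).

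Dnajc5, the cysteine string protein of secretory vesicles, rose by 0.35 (SE 0.0799, limma adjusted p = 0.0106), but not after cyclic loess (adjusted p = 0.0545). Dnajc18, a J protein of the ER membrane, rose by 0.42 (SE 0.122, limma adjusted p = 0.0301), with overlapping groups. It lost the call without wild type replicate 1 (0.0596) or 4 (0.0561), without Sel1L knockout replicate 2 (0.0768), 3 (0.0786) or 4 (0.0745), and after all 3 rescalings (0.161, 0.0679 and 0.124 for quantile, centring and cyclic loess). Of the ER membrane J proteins it was the 1 called among 4 measured. Dnajc2, which sits on the ribosome with Hspa14, rose by 0.37 (SE 0.107, limma adjusted p = 0.0301). It lost the call without wild type replicate 3 (0.062) or 4 (0.0674), without Sel1L knockout replicate 1 (0.054), 3 (0.0825) or 4 (0.0766), after the same rescalings (0.143, 0.0602 and 0.0564) and with the replicate number as a block (0.0681).

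The class C genes that fell were Dnajc6 and Dnajc12. Dnajc6, the auxilin that strips clathrin from vesicles together with Hspa8, read 6.12, 5.98, 5.70 and 6.04 in wild type and 5.60, 5.41, 5.66 and 5.62 in knockout. Its groups nearly met, and the difference of -0.38 (SE 0.106, limma adjusted p = 0.0238) lost the call without wild type replicate 1 (0.057) or 4 (0.0546) or Sel1L knockout replicate 2 (0.0683). Dnajc12, a partner of the enzymes that hydroxylate aromatic amino acids, read 7.41, 7.33, 7.45 and 7.41 in wild type and 7.04, 7.03, 7.14 and 7.02 in knockout. Both groups were tight and apart, and the difference was -0.34 (SE 0.0706, limma adjusted p = 0.00692). Dnajc13, a J protein of endosomes, has 15 features, of which 1 was called higher, with differences from 0.03 to 0.38; its kept feature differed by 0.10. The other uncalled class C genes lay between -0.30 (Dnajc21) and 0.26 (Dnajc8). The 2 members that regulate rather than fold, Hspbp1 (0.24) and Hspbap1 (0.05), were not called, though 1 of them was called higher without Sel1L knockout replicate 1, with trend and robust variance, and among genes above the median level.

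Of 27 co-chaperones of Hsp70 and Hsp90 measured, 3 rose and 3 fell. The 22.2% called is below the 28.7% of all genes. Sugt1, an Hsp90 partner, rose by 0.81 (SE 0.112), and Tomm34, which links Hsp70, Hsp90 and mitochondrial precursors, by 0.43 (SE 0.106), the latter not after quantile normalization (adjusted p = 0.0794) or cyclic loess (0.0634). Bag1, an exchange factor of Hsp70, fell by 0.44 (SE 0.0892) and Fkbp5, an Hsp90 partner induced by steroid hormones, by 0.58 (SE 0.139). The other called genes, named after their values were seen, were Ptges3 (p23), higher by 0.28, and Stip1 (Hop), lower by 0.31. The 3 lower calls became 5 under each rescaling, and the 3 higher became 1 after quantile normalization or cyclic loess and 5 without wild type replicate 3.

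The ER counterparts that the rule left out stood at 8 of 11 higher and 0 lower, with a median of 0.64 (72.7% called, beside 28.7% of all genes). Side by side within the families, the ER Hsp70 Hspa5 rose by 0.76 and the matrix Hsp70 Hspa9 by 1.21, while the cytosolic Hspa8 differed by 0.07. Hspa13, another Hspa gene of the ER, differed by 0.28 and was not called. In the Hsp90 family, the ER gene Hsp90b1 rose by 1.21, and the cytosolic Hsp90aa1 (-0.27) and the mitochondrial Trap1 (0.26) were not called. Among exchange factors, Hyou1 of the ER rose by 0.95 and Grpel1 of the matrix by 1.19, and Hsph1 of the cytosol fell by 0.41. Further exchange factors were not called, such as Sil1 of the ER (0.15), Grpel2 of the matrix (0.18) and Hspa4 of the cytosol (-0.03). Bag1 of the cytosol was called lower (-0.44). Of the other Bag genes, Bag2 (0.10), Bag3 (0.26), Bag5 (0.22) and Bag6 (0.16) lay above 0 and Bag4 (-0.23) below, none of them called. The Hsp70 regulator Hspbp1 also lay above 0 (0.24) without a call. These are separate differences of single genes, and the difference between compartments was not tested.

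**Figure D5:**
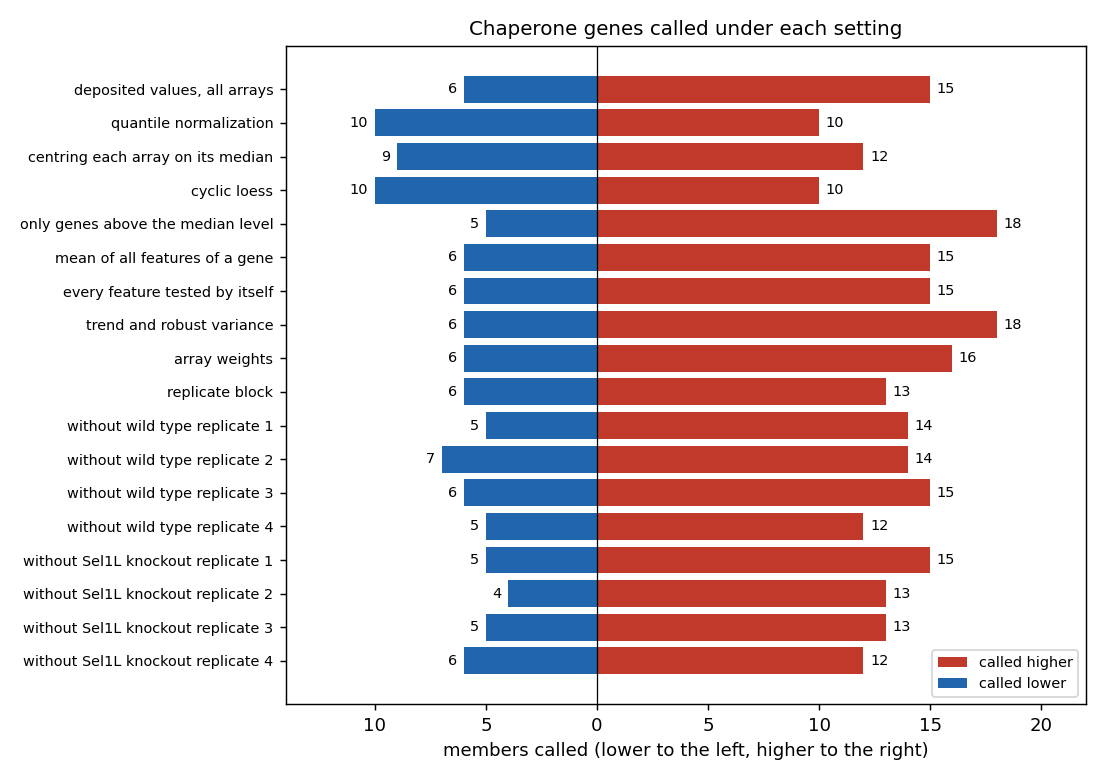
Number of chaperone genes called lower (blue, to the left) and higher (red, to the right) in limma on the deposited values and under each of 17 alternatives. Higher calls range from 10 to 18 and lower calls from 4 to 10, and the sides are equal after quantile normalization and cyclic loess.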

How the data were processed

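The authors deposited log2 values from RMA (the robust multi-array average over each feature's probes), a tool named in the submitters' processing notes. Version, chip definition and log base were not given in the sources used here; log2 was taken from the method and the range of 0.964 to 14.4. Of 35556 features, 21218 carried 1 gene symbol in GEO's platform annotation, 1881 several and 12457 none. Features with 1 symbol were kept, and the one with the highest mean per gene was taken, which gave 18820 genes. The 68 members had 97 such features, and the RefSeq table (GRCm38.p6) held all 68 Entrez identifiers and changed 0 symbols.

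Genotype was fitted with limma 3.58.1 in R 4.3.3 (lmFit, eBayes defaults, 6 residual degrees of freedom), with Benjamini-Hochberg adjustment over all genes and no filter on dim genes. The code was tested on simulated data. Figures were drawn with matplotlib 3.10.9. The members, the related lists and the tests were chosen with earlier results of these data known. Named genes were all called members, a fixed set of main chaperones, and up to 4 called genes of each related list with the smallest p, with Trap1, Tcp1, Hsf1 and Lonp1. Array values were printed for the 8 largest rises, all falls and 9 fixed genes as far as analysed, and also for Cct2, Dnajb2 and Lonp1. For arrays, the number of samples limits the precision. The 17 alternatives were 3 rescalings, a filter on dim genes, other handling of features, other variance models, blocking on replicate number, and each array left out in turn.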

Additional observations from a re-analysis of the deposited data

Results flagged for a closer look

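Single arrays stood apart from the other 3 of their group in 7 of 72 groups checked, over Sel1l and 35 named members, by Dixon's test at 95%, where chance gives about 1 in 20. Hspa8 on wild type replicate 2 read 11.46, against 12.26 to 12.29. Sel1l on Sel1L knockout replicate 4 read 11.45, against 11.66 to 11.70, and Hspb6 on the same array read 7.75, against 7.44 to 7.47. On Sel1L knockout replicate 1, Dnajc18 read 6.55, against 6.82 to 6.84, and Hspa4 read 8.65, against 8.78. Dnaja1 on Sel1L knockout replicate 2 read 8.80, against 8.68 to 8.70, and Dnajc12 on Sel1L knockout replicate 3 read 7.14, against 7.02 to 7.04.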

How the results depend on the processing

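The 6 members called lower became 10 after quantile normalization and 10 after cyclic loess; 16 and 15 of the 21 called members were still called there. With the replicate number as a block, 13 members were called higher and 6 lower, and all genes called numbered 4678 against 5406. Leaving out each array gave 12 to 15 higher and 4 to 7 lower members, 3721 to 5227 for all genes called, and a Sel1l difference between -0.78 and -0.70. Same-numbered samples did not deviate together (correlations 0.22, 0.15, -0.27 and -0.02), and 1 of 4 wild type samples correlated best with its own number. Small differences are limited by the spread of the arrays, and 13 members by signal below the array median.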

Other observations

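Wild type arrays varied more over the members than knockout arrays: the mean absolute deviation from the group's mean was 0.115 to 0.164 per wild type array and 0.0609 to 0.0975 per knockout array, on the log2 scale. Wild type replicate 1 was its group's lowest array in 30 of 68 members, and Sel1L knockout replicate 1 in 31.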
